A study of Mus musculus with 4 samples.

Results

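The chemokine ligands and receptors of the heart were taken by symbol, as every gene named Ccl, Ccr, Cxcl, Cxcr, Cx3cl, Cx3cr, Xcl, Xcr or Ackr followed by a number and at most 1 further letter. Of 23238 different symbols, 61 matched, in 65 rows. Where a symbol had several rows, the row with the highest mean was used. The 47 genes with 4 or more normalized reads in any of the 4 libraries are described here. Of these, 36 reached 16 and 11 did not. The remaining 14 genes stayed below 4 in every library.

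The data were heart mRNA-seq libraries of 4 groups of male CDF1 mice, with 1 library per group and 10 mice per group in the study. Normal control mice, E(−)T(−), had neither exercise nor tumor. Normal exercise mice, E(+)T(−), ran on a treadmill at high intensity every other day. Cancer control mice, E(−)T(+), received CT26 cells, a murine colorectal carcinoma line, into the tail vein and did not exercise, and cancer exercise mice, E(+)T(+), had both. The labels give postnatal day 28 as the age for all groups, which by the methods is near the age at purchase, and the hearts were taken later, at the end of the experiment. Injected CT26 cells spread through the body, including the lungs, so that the tumor groups model disseminated disease. The number of hearts behind a library, and whether mice without tumor received a sham injection, are not given in the sources used here.

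Chemokines are small secreted proteins that steer leukocytes along concentration gradients. They are sorted into CXC, CC, CX3C and XC families by the spacing of their first cysteines, and each signals through a few G protein-coupled receptors named after the family they bind. Atypical receptors (Ackr) bind chemokines without G protein signalling and mostly scavenge them. In the heart, resident macrophages, fibroblasts and endothelial cells make many of the ligands, and recruited monocytes and neutrophils carry most of the inflammatory receptors.

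The libraries held 6595401 to 11546009 recovered reads, the fewest in E(−)T(−) and the most in E(+)T(+). Globin genes took 7.86% to 8.76% of the reads in the other 3 libraries and 37.3% in E(+)T(+), so that library stood apart. All 10 cardiomyocyte markers had reads in every library, and their summed normalized read count was 510867 to 594411. The deposited values are log2(normalized reads + 1). A normalized read in E(−)T(−) is worth slightly less than 1 read, and the floor of 3 reads equals 2.65 to 3.44 normalized reads. QuantSeq yields 1 read per transcript end, so levels were compared between genes without division by length.

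A gene was called higher or lower at a 2-fold difference of the deposited values, provided that 1 of the 2 libraries held 4 normalized reads or more. A stricter call also required that the 95% Clopper-Pearson interval of the ratio of recovered reads excluded 1. This interval covers counting error only. With 1 library per group the spread between mice could not be measured, no p-value was computed, and every difference below is a difference between libraries.

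The 31 ligands described summed to 4840 normalized reads in the normal control, 5468 in normal exercise, 9336 in the cancer control and 7067 in cancer exercise. Values for the 4 libraries are given in this order throughout. The 12 signalling receptors gave 357, 245, 282 and 208 normalized reads. The 4 atypical receptors gave 584, 537, 587 and 695. Ligand reads were thus highest in the cancer control and those of signalling receptors in the normal control, also relative to total reads. As RPM values (recovered reads scaled to the library total), the ligands gave 640, 713, 1110 and 560. On that scale cancer exercise was the lowest ligand library, whereas on the deposited scaling it was above both libraries without tumor. The atypical receptors were highest in cancer exercise on the deposited scaling. Their RPM values were 77.2, 70.1, 69.9 and 55.1, lowest in cancer exercise. In bulk tissue, fewer cells of a type and less RNA per cell cannot be told apart.

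Cancer without exercise, E(−)T(+) versus E(−)T(−), had 18 of 45 chemokine genes called higher, against 14.6% of all genes tested, and 8 called lower, against 13.1%. By the stricter call 15 were higher (11.7% of all genes) and 7 lower (11.0%). Cancer with exercise, E(+)T(+) versus E(+)T(−), had 20 of 45 higher, against 12.0%, and 6 lower, against 11.1%. The stricter call left 18 higher (9.44%) and 4 lower (8.80%). In both comparisons the share of members called higher (40.0% and 44.4%) was further above its background than the share called lower (17.8% and 13.3%).

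Exercise in normal mice, E(+)T(−) versus E(−)T(−), had 6 of 43 genes higher, against 5.88% of all genes, and 9 lower, against 6.40%. By the stricter call 4 were higher (3.61%) and 7 lower (3.88%). Exercise in cancer-bearing mice, E(+)T(+) versus E(−)T(+), had 10 of 45 higher, against 9.39%, and 10 lower, against 10.0%. The stricter call left 10 higher (6.94%) and 8 lower (7.22%). Exercise therefore went with calls in both directions, each above the background share. This background holds all genes past the minimum and was not matched for abundance, and several of the members called have few reads.

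Over the tested members, median log2 fold changes were −0.04 (exercise, normal mice), −0.16 (exercise, cancer-bearing mice), 0.00 for cancer without exercise and 0.43 for cancer with exercise. The median over all genes lay between −0.01 and 0.00. Dividing by total reads in place of the deposited scaling moved the median of all genes to −0.60 for E(+)T(+) versus E(−)T(+) and to −0.74 for E(+)T(+) versus E(+)T(−). The share of all genes called under that scaling was not computed, so the member counts have no background there. Under it 7 members were higher and 18 lower in the former comparison, and 10 higher and 16 lower in the latter. In the former, that scaling takes Cxcl5, Xcr1 and Ackr1 below 2-fold, and it takes Cxcl16, Ccl2, Ccl21a, Ccr1, Cxcr4, Cx3cr1 and Ackr4 past 2-fold downward. In the latter, it takes Cxcl14, Ccl2, Ccl7, Ccl6, Ccl9, Ccl19, Ccr1 and Ackr2 below 2-fold, and it takes Cxcl9, Cxcl16, Ccl8, Ccl24, Ccl21c, Cxcr4, Cxcr5 and Cx3cr1 past 2-fold downward. All values below use the deposited scaling, which sets the median gene near 0, and so are changes relative to the median gene.

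**Figure D1:**
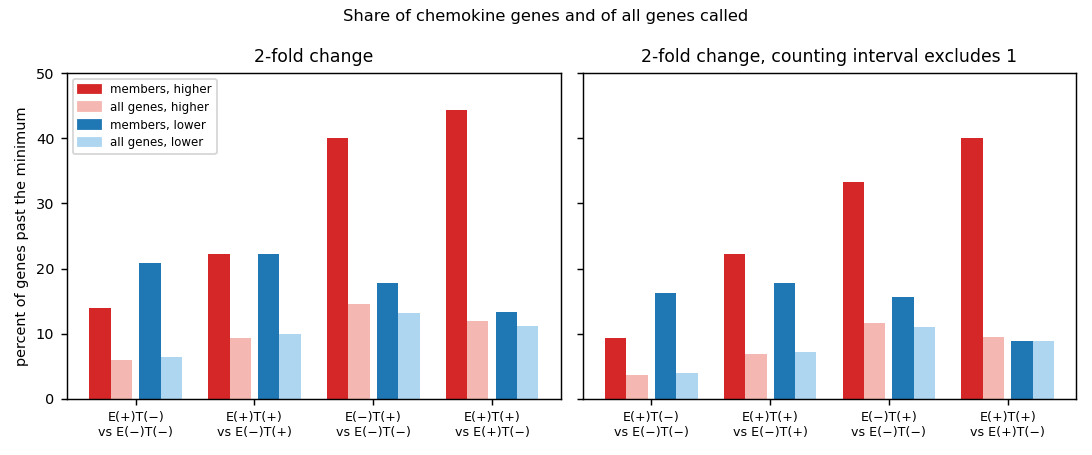
Percent of genes called higher or lower in each comparison (dark bars, chemokine genes past the minimum; pale bars, all genes past it), by 2-fold change (left) and with a counting interval that also excludes 1 (right). The members called higher reached 40.0% and 44.4% in the 2 comparisons of cancer, against 14.6% and 12.0% of all genes. Under scaling by total reads the split for E(+)T(+) versus E(+)T(−) turns to 10 higher and 16 lower. There the median of all genes is −0.74, and the share of all genes called was not computed.

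**Figure D2:**
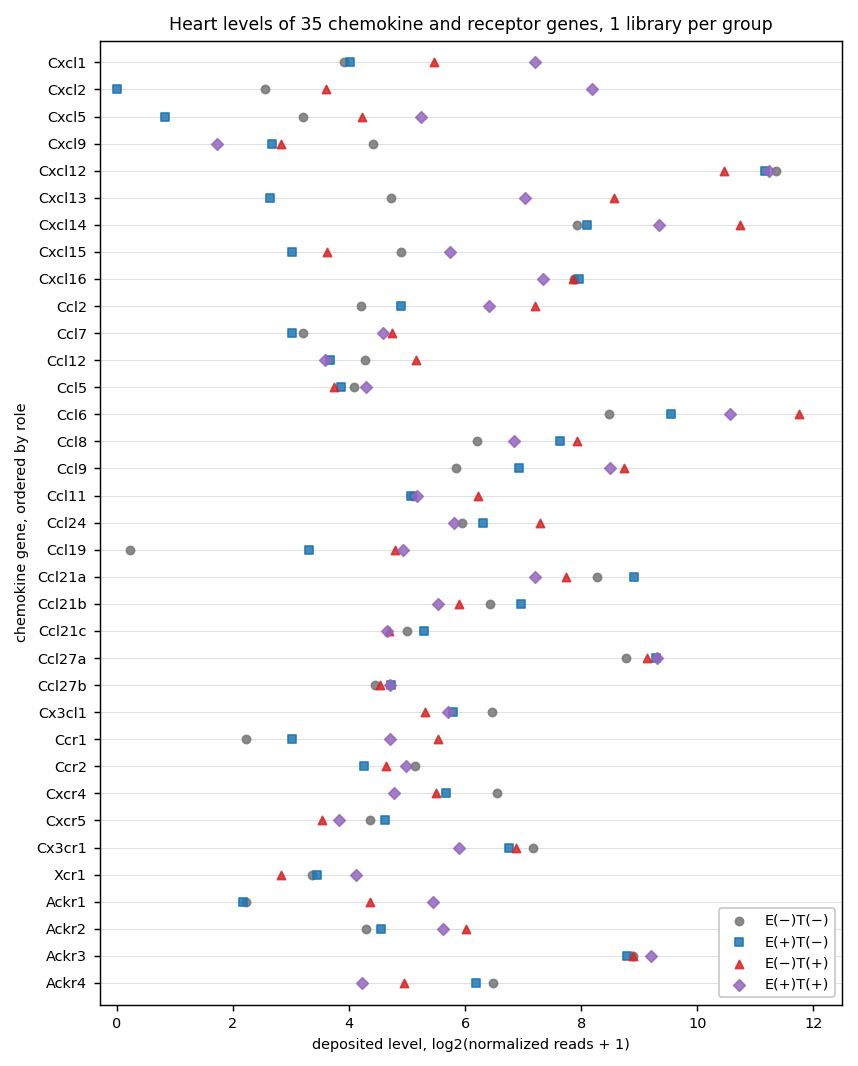
Deposited level, log2(normalized reads + 1), of 35 of the 36 genes that reached 16 normalized reads, ordered by role, with 1 point per library and no error bars because each group has 1 library. Cxcl12 and Ccl6 hold the highest levels, and the Cxcl2 points spread from 0 normalized reads in E(+)T(−) to 289 in E(+)T(+).

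The neutrophil-attracting CXC ligands had the widest range of levels. Cxcl1, Cxcl2 and Cxcl5 signal through Cxcr2, the main chemokine receptor of neutrophils, and are induced by NF-kB. Cxcl9 and Cxcl10 attract T cells through Cxcr3 and are induced by interferon gamma. The 250 bases before the RefSeq start of 2 genes of each kind are shown because the pairs were called in opposite directions between the 2 cancer libraries. The calls of Cxcl9 (2 reads in E(+)T(+), 7 in E(−)T(+)) and Cxcl10 (2 and 9) rest on few reads. Their counting intervals included 0, so neither passed the stricter call. Capitals mark matches to the NF-kB consensus, to the interferon-stimulated response element (GAAA repeated after any 2 bases) or to a TATA box TATAAA, searched on both strands. The windows are chr5:90890995-90891244 (plus strand) for Cxcl1, chr5:90903649-90903898 (plus strand) for Cxcl2, chr5:92328080-92328329 (minus strand) for Cxcl9 and chr5:92348890-92349139 (minus strand) for Cxcl10, in GRCm38.p6, all written 5′ to 3′ along the gene.
Cxcl1: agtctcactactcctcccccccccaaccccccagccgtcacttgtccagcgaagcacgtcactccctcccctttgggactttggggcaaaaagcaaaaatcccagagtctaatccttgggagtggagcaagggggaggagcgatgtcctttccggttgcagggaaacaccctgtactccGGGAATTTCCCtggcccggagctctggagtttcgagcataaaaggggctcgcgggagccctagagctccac
Cxcl2: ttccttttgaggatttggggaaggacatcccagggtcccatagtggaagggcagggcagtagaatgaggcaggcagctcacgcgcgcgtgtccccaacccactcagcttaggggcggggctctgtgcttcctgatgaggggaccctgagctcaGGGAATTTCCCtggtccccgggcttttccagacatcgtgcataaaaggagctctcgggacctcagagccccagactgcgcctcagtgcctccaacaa
Cxcl9: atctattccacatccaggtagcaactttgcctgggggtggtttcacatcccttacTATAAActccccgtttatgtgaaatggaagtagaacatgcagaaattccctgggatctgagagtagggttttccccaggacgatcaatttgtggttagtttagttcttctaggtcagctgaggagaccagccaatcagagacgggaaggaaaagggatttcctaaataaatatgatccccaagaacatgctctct
Cxcl10: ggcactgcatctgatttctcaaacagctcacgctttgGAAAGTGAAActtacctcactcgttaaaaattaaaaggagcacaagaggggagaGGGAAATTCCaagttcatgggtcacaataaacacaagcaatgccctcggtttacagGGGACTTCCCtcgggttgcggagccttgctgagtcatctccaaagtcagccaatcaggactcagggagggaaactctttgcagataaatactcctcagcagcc

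Cxcl1 and Cxcl2 held the same 10 letters, GGGAATTTCC, at bases 71 to 62 and 97 to 88 before the start, overlapped in each by a match on the minus strand that begins 1 base later. Cxcl10 held GGGAAATTCC at bases 159 to 150 and GGGACTTCCC at bases 103 to 94, and GAAAGTGAAA at bases 213 to 204. In the Cxcl9 window only TATAAA was found, at bases 195 to 190. Among 27025 RefSeq promoters of this length, 3.75% held the NF-kB consensus, 3.04% the interferon element, and 3504 held TATAAA. A window was given for 35 of the 47 genes described, and of these 5 held the NF-kB consensus (Cxcl1, Cxcl2, Cxcl10, Ccl9 and Ackr2), 3 the interferon element (Cxcl10, Cxcl14 and Ccl19) and 11 TATAAA. A match describes letters in this window and not binding of a factor.

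Cxcl1 had 14.0 and 15.2 normalized reads in the libraries without tumor, 43.1 in the cancer control and 147 in cancer exercise. The libraries without tumor were alike, and cancer exercise was the highest. The log2 fold change of Cxcl1 was 1.56 for cancer without exercise (95% interval 0.72 to 2.70) and 1.75 for exercise in cancer-bearing mice (1.29 to 2.27).

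Cxcl2 had 4, 0, 13 and 265 reads, or 4.85, 0, 11.2 and 289 normalized reads. It was the most uneven gene of the family, near the floor in 3 libraries and abundant in E(+)T(+). E(+)T(+) exceeded E(−)T(+) by a log2 fold change of 4.57 (3.86 to 5.59), and exceeded E(+)T(−), which had no read, by at least 6.74 when the latter is set to the floor of 3 reads, with a lower counting limit of 6.43.

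Cxcl5 had 8.18, 0.769, 17.7 and 36.9 normalized reads. It was called higher in E(+)T(+) than in E(−)T(+), with a log2 fold change of 1.02 (0.24 to 1.95), a call that is lost under scaling by total reads or with a pseudocount of 4. E(+)T(−) held a single Cxcl5 read against 7 in E(−)T(−), with a log2 fold change of −2.38 and a wide interval of −8.64 to −0.19. Cxcl3, the other ligand of this kind, had no read.

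The receptor Cxcr2 was far scarcer than its ligands in E(+)T(+). It had 3.58, 2.61, 13.4 and 14.1 normalized reads, so both cancer libraries were above both libraries without tumor. Its log2 fold change between the 2 cancer libraries was 0.07 (−1.09 to 1.28). As a sum, neutrophil markers stood in the same order, with normalized read counts of 151, 104, 3343 and 6304 over 12 of 13 listed genes in the table. Of 11 neutrophil markers tested, 10 were called higher for cancer without exercise (14.6% of all genes) and 10 for cancer with exercise (12.0%). For exercise in cancer-bearing mice 4 were called higher (9.39%), namely S100a8, Retnlg, Mmp8 and Ngp, with log2 fold changes of 1.02 to 1.28. Scaling by total reads moves the median of all genes to −0.60 in this comparison, and the marker calls were not recomputed under it. S100a8, an alarmin stored in neutrophils, had 46.1, 34.2, 1332 and 2773 normalized reads, while Mmp8 had no read in the libraries without tumor. What part these cells have in the ligand values was not tested.

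The interferon-induced CXC ligands were scarce. Cxcl9 had 20.2, 5.36, 6.11 and 2.29 normalized reads and was highest in the normal control. It was lower in E(+)T(−), with a log2 fold change of −1.74 (−3.55 to −0.53), and lower in E(−)T(+), with −1.58 (−3.24 to −0.41). Cxcl10 had only 1, 5, 9 and 2 reads. It passed the 2-fold line upward for cancer without exercise (2.01) and for exercise in normal mice (1.29) and downward for exercise in cancer-bearing mice (−1.49), but none of its intervals excluded 0. Cxcl11 stayed below 4 normalized reads. Their receptor Cxcr3 had 4, 2, 0 and 6 reads, and the 10 T cell markers summed to 93.6, 55.7, 40.0 and 116 normalized reads.

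Cxcl12, which retains and attracts leukocytes and progenitors through Cxcr4, was the most abundant CXC ligand of E(−)T(−), with 2627, 2306, 1415 and 2411 normalized reads. The cancer control library was the lowest, with a log2 fold change of −0.89 (−0.99 to −0.80) against E(−)T(−), which misses the 2-fold line and becomes −1.04 under scaling by total reads. That scaling also moves the value for cancer with exercise from 0.06 to −0.66. Its receptor Cxcr4 had 92.5, 49.7, 44.0 and 26.4 normalized reads and was called lower for cancer without exercise, with −1.05 (−1.61 to −0.55). The scavenging Cxcl12 receptor Ackr3 had 473, 440, 474 and 587 and was not called in any comparison. Ligand, signalling receptor and scavenger thus differed in their order across the libraries.

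Cxcl13, the B cell attractant that signals through Cxcr5, had 25.5, 5.25, 376 and 129 normalized reads. Both cancer libraries exceeded both others, with a log2 fold change of 3.83 (3.28 to 4.59) without exercise and 4.38 (3.41 to 6.05) with exercise. Exercise went with lower Cxcl13 in both settings, by −2.08 (−3.81 to −0.87) without cancer and by −1.54 (−1.85 to −1.24) with it. The receptor Cxcr5 had 19.4, 23.6, 10.5 and 13.2 normalized reads and was not called. B cell markers, all scarce, summed to 34.8, 32.0, 4.25 and 16.5, and 6 of 8 had no read in E(−)T(+).

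Cxcl14, a ligand made by stromal and epithelial cells, had 243, 272, 1707 and 644 normalized reads. The log2 fold change for cancer without exercise was 2.81 (2.61 to 3.02), and the cancer exercise library was lower than the cancer control by −1.40 (−1.54 to −1.27). Cxcl16, a membrane-bound ligand of Cxcr6, had 233, 247, 230 and 161 and was not called. Under scaling by total reads it passes 2-fold downward in both comparisons with E(+)T(+), at −1.10 and −1.33. Cxcr6 itself had 2 to 5 reads per library.

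Cxcl15, a chemokine typical of lung epithelium, had 28.6, 7.09, 11.3 and 52.2 normalized reads. It was the lowest in normal exercise and the highest in cancer exercise. Its log2 fold change with exercise was −1.87 (−3.34 to −0.79) in the absence of cancer, but 2.11 (1.29 to 3.20) in its presence. The 6 lung epithelium markers, which a heart should lack, had summed normalized read counts of 600, 151, 532 and 1788, also lowest in E(+)T(−) and highest in E(+)T(+). Scgb1a1, a club cell secretory protein, gave 467, 97.5, 363 and 1228 of these normalized reads. The part of lung tissue in the Cxcl15 values, or in those of other members, was not tested.

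Among the CC ligands, Ccl2, Ccl7 and Ccl12 recruit monocytes through Ccr2. Ccl2 had 17.5, 28.8, 146 and 84.2 normalized reads, Ccl7 8.18, 7.12, 25.7 and 22.9, and Ccl12 18.4, 11.7, 34.7 and 11.0. Each was highest in the cancer control library. Ccl2 was higher for cancer without exercise by a log2 fold change of 2.99 (2.32 to 3.95) and for cancer with exercise by 1.51 (0.93 to 2.18). Ccl7 gave 1.54 (0.45 to 3.11) and 1.56 (0.43 to 3.05). Under scaling by total reads the values for cancer with exercise drop to 0.80 for Ccl2 and 0.87 for Ccl7, below 2-fold. Ccl12 was lower in E(+)T(+) than in E(−)T(+), by −1.57 (−2.82 to −0.62). The receptor Ccr2 had 34.3, 18.0, 23.8 and 30.6 normalized reads, with no call in any comparison.

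Ccl6 and Ccl9 are mouse ligands of Ccr1, made largely by myeloid cells. Ccl6 had 357, 744, 3436 and 1509 normalized reads and was the most abundant chemokine of E(−)T(+). Cancer without exercise went with a log2 fold change of 3.26 (3.10 to 3.44). Exercise went with higher Ccl6 in normal mice, by 1.06 (0.87 to 1.26), and lower Ccl6 in cancer-bearing mice, by −1.19 (−1.28 to −1.10). Ccl9 had 56.4, 120, 425 and 361 normalized reads and was called higher for cancer without exercise, by 2.89 (2.49 to 3.37), and for exercise in normal mice, by 1.08 (0.62 to 1.60). The receptor Ccr1 had 3.66, 7.10, 45.4 and 25.1, with a log2 fold change of 3.31 (2.08 to 6.03) for cancer without exercise. Ligands and receptor of this axis were all highest in the cancer control heart. Under scaling by total reads Ccl6, Ccl9 and Ccr1 are no longer called for cancer with exercise.

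Ccl8, which in the mouse acts through Ccr8, had 72.5, 198, 243 and 113 normalized reads. It was higher with exercise in normal mice, by a log2 fold change of 1.44 (1.05 to 1.88), and lower with exercise in cancer-bearing mice, by −1.10 (−1.45 to −0.77). The eotaxins Ccl11 and Ccl24, which attract eosinophils through Ccr3, were both highest in E(−)T(+). Ccl11 had 33.3, 32.5, 73.4 and 35.1 normalized reads and Ccl24 had 60.9, 77.7, 155 and 54.8. For Ccl24 the log2 fold change was 1.34 (0.90 to 1.82) for cancer without exercise, and the cancer exercise library was below the cancer control by −1.49 (−1.99 to −1.04). Neither Ccr8 nor Ccr3 reached 4 normalized reads.

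As a sum, markers of monocytes and macrophages stood in the same order as Ccl2, Ccl6 and Ccl9. Their summed normalized read counts over 14 genes were 3478, 4257, 7824 and 5477, with 9 called higher and 1 lower of 14 for cancer without exercise (14.6% and 13.1% of all genes), and 1 higher and 6 lower for exercise in cancer-bearing mice (9.39% and 10.0%). Of the single markers, only Itgam, Lyve1 and F13a1 stood in the order of the sum. Csf1r, the macrophage growth factor receptor, had 1003, 987, 928 and 616 normalized reads. The fibroblast list summed to 39131, 45677, 61778 and 42587. What part these cells have in the CC ligand values was not tested.

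Ccl3, Ccl4 and Ccl5 are inflammatory ligands made by activated leukocytes. Ccl3 had 0, 1, 2 and 13 reads and Ccl4 had 3, 1, 3 and 10, so that only E(+)T(+) held more than a few. Between the cancer libraries the log2 fold change was 2.47 (0.87 to 6.20) for Ccl3 and 1.71 (0.09 to 4.55) for Ccl4. Ccl5 had 14, 15, 14 and 17 reads and was not called.

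Ccl19 and the Ccl21 genes guide dendritic cells and naive T cells through Ccr7. The mouse genome holds near-identical copies of both, so the division of reads among their rows is uncertain. Ccl19 had 0, 10, 30 and 27 reads, and the log2 fold change for cancer without exercise was at least 2.94 against the floor of 3 reads, with a lower counting limit of 2.56. Ccl21a had 307, 478, 213 and 147 normalized reads, Ccl21b 84.8, 124, 58.1 and 45.0, and Ccl21c 30.9, 38.1, 24.6 and 24.1. The 3 rows stood in 1 order, highest in normal exercise and lowest in cancer exercise. Between the cancer libraries Ccl21c hardly differed, with −0.03 (−0.91 to 0.82). Since the division of reads is uncertain, the 3 rows are not independent observations. For cancer with exercise Ccl21a was lower by −1.70 (−1.99 to −1.43) and Ccl21b by −1.44 (−2.01 to −0.95), while Ccl21c gave −0.64 (−1.47 to 0.12). Ccr7 had 7, 1, 0 and 10 reads.

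Ccl27a and its copy Ccl27b, skin chemokines whose receptor is Ccr10, hardly differed. Ccl27a had 438, 624, 561 and 628 normalized reads and Ccl27b 20.7, 25.3, 22.0 and 25.1, and no fold change of either reached 2. Ccr10 stayed below 4 normalized reads. Ccl25, a ligand of Ccr9, had 4, 14, 6 and 4 reads and Ccr9 had 4, 11, 3 and 2. Both were most frequent in E(+)T(−), but no interval of their fold changes excluded 0. Ccl17, a dendritic cell product, had 5, 1, 4 and 4 reads.

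Cx3cl1, the membrane-anchored ligand of endothelial cells, had 86.9, 54.3, 38.7 and 51.4 normalized reads. It was called lower for cancer without exercise, by a log2 fold change of −1.15 (−1.74 to −0.61). Its receptor Cx3cr1, carried by patrolling monocytes and tissue macrophages, had 143, 107, 116 and 58.1. Between the cancer libraries Cx3cr1 gave −0.99 (−1.49 to −0.54), just short of the 2-fold line. Xcl1, made by T and NK cells, had 10, 3, 0 and 1 reads. Its receptor Xcr1, a mark of cross-presenting dendritic cells, had 9.21, 9.94, 6.08 and 16.3 normalized reads, with a log2 fold change of 1.29 (0.03 to 2.95) for exercise in cancer-bearing mice that drops below 2-fold under scaling by total reads.

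Among the atypical receptors, Ackr1 and Ackr2 were called higher and Ackr4 lower with cancer, while Ackr3 was not called. Under scaling by total reads the call of Ackr2 for cancer with exercise is lost. Ackr1, which binds CXC and CC ligands on venules and red cells, had 3.65, 3.48, 19.4 and 42.3 normalized reads. Its log2 fold change was 2.14 (0.76 to 4.88) for cancer without exercise and 3.27 (2.09 to 5.51) for cancer with exercise. Erythroid markers summed to 663836, 645727, 662659 and 4722708 normalized reads, and their part in the Ackr1 values was not tested. Ackr2, a scavenger of inflammatory CC ligands, had 18.5, 22.5, 63.7 and 48.0, with 1.73 for cancer without exercise and an interval that reached up to 2.67 and excluded 0. Ackr4, which removes Ccl19, Ccl21 and Ccl25, had 88.0, 71.6, 29.8 and 17.6. It was lower for cancer without exercise, by −1.53 (−2.18 to −0.96), and with exercise, by −1.96 (−2.90 to −1.24).

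**Figure D3:**
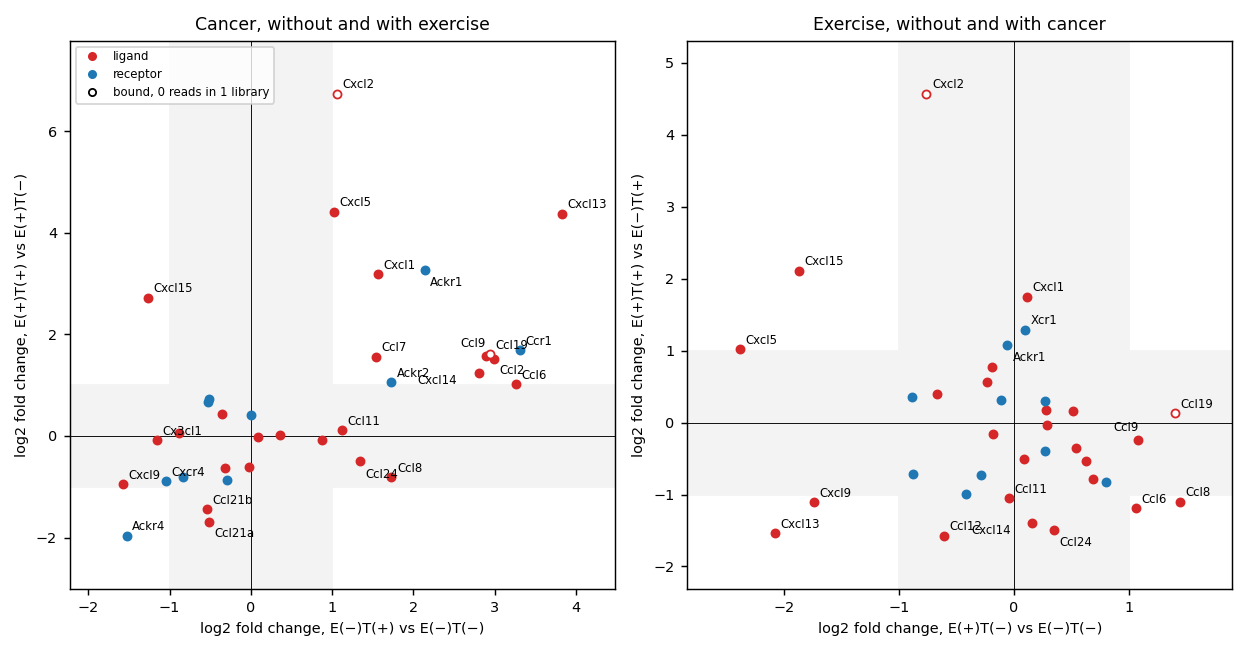
Log2 fold changes of 35 named genes in pairs of comparisons that share no library: cancer without exercise (x) against cancer with exercise (y) on the left, exercise in normal mice (x) against exercise in cancer-bearing mice (y) on the right. Gray bands mark less than 2-fold, open points are bounds against 3 reads, and Cxcl13 lies far up and right on the left panel (3.83 and 4.38) while Ccl6 lies at 1.06 and −1.19 on the right; scaling by total reads lowers the y values by about 0.74 (left) and 0.60 (right).

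Many of the ligand genes lie next to each other, and 32 of the 61 members fell into 7 clusters of at least 3 genes with gaps of at most 150 kb in the GENCODE annotation of GRCm38. The cluster with Cxcl5, Cxcl3, Cxcl15, Cxcl1 and Cxcl2 spans chr5:90759360-90905938. All 4 of its genes with reads were called higher for exercise in cancer-bearing mice (9.39% of all genes) and for cancer with exercise (12.0%). For Cxcl5 the former call is lost under scaling by total reads. In the other comparisons, 3 of the 4 were called lower for exercise in normal mice (6.40%). Of these, Cxcl2 had 0 reads against 4 and did not pass the stricter call, and Cxcl5 had 1 read against 7. For cancer without exercise 3 were higher (14.6%) and 1 lower (13.1%). Among the 3 higher, only Cxcl1 passed the stricter call. The intervals of Cxcl2 (−0.37 to 3.40) and Cxcl5 (−0.16 to 2.62) included 0, and both calls are lost with a pseudocount of 4. A cluster with Cxcl9, Cxcl10 and Cxcl11 lies at chr5:92321347-92365485. Both of its genes with at least 4 normalized reads were called lower for exercise in cancer-bearing mice (10.0% of all genes), though their counting intervals included 0.

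On chromosome 11, Ccl2, Ccl7, Ccl11, Ccl12, Ccl8 and Ccl1 lie within chr11:82035571-82305690. Of the 5 described, 4 were called higher for cancer without exercise (14.6% of all genes) and 3 were called lower for exercise in cancer-bearing mice (10.0%). A second cluster, chr11:83525778-83664683, holds Ccl5, Ccl9, Ccl6, Ccl3 and Ccl4. Within it Ccl3 and Ccl4 were higher in E(+)T(+) than in E(−)T(+) and Ccl6 was lower, so its genes did not move together. Neighbouring genes share their libraries and are not independent observations.

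**Figure D4:**
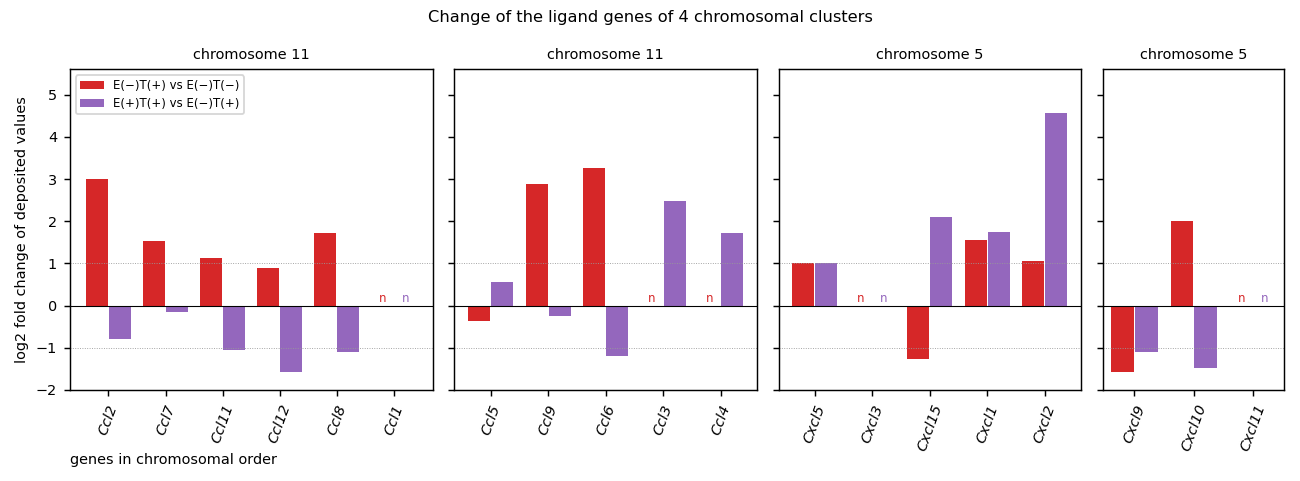
Log2 fold change of deposited values for the ligand genes of 4 clusters in chromosomal order, for cancer without exercise (red) and exercise in cancer-bearing mice (purple), which share the E(−)T(+) library; dotted lines mark 2-fold and n marks genes below 4 normalized reads in both libraries. In the first chromosome 5 cluster the purple bars are all above 0, up to 4.57 for Cxcl2, and scaling by total reads lowers purple bars by about 0.60.

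Other genes of the pathway were counted by list, against the same background shares. Their calls use the deposited scaling and were not recomputed under scaling by total reads. Of the chemokine receptor signalling list, 34 of 35 genes were in the table. It had 0 higher and 2 lower of 31 tested for exercise in normal mice (5.88% and 6.40% of all genes). In cancer-bearing mice it had 0 and 1 of 33 (9.39% and 10.0%). For cancer it had 6 higher and 1 lower of 33, both without exercise (14.6% and 13.1%) and with it (12.0% and 11.1%). Among its most abundant members, Gnai2, the inhibitory G protein subunit, had 5042, 5267, 5533 and 5212 normalized reads and Stat3 had 2529, 2810, 4972 and 4281. Neither passed the 2-fold line.

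Inducers of chemokine genes had 7 of 15 called higher and 2 lower for cancer without exercise (14.6% and 13.1% of all genes). With exercise they had 5 and 3 (12.0% and 11.1%). For exercise itself they had 2 higher and 0 lower in normal mice (5.88% and 6.40%), and 2 and 1 in cancer-bearing mice (9.39% and 10.0%). Nfkbia, the NF-kB inhibitor that NF-kB itself induces, had 1765, 2305, 5668 and 6676 normalized reads. Cebpd, a transcription factor of the acute phase response, had 368, 565, 1528 and 1268. Irf1, a factor induced by interferon gamma, had 533, 535, 195 and 202 and was thus lower in both cancer libraries. The cytokine genes Il6 and Il17a had no read in any library.

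Of 14 chemokine-related genes that the symbol rule does not take, 2 of 12 were higher for exercise in normal mice (5.88% of all genes). In cancer-bearing mice 2 of 13 were higher (9.39%) and 1 lower (10.0%). For cancer without exercise 4 of 13 were higher (14.6%), and with exercise 1 of 12 was higher (12.0%) and 1 lower (11.1%). Pf4, the platelet chemokine also called Cxcl4, had 640, 1099, 2801 and 1754 normalized reads and was highest in the cancer control. Mif, a cytokine that binds Cxcr2 and Cxcr4, had 1002, 1139, 1165 and 1133. Rarres2, the chemoattractant chemerin, had 2135, 1535, 2180 and 2122, and its receptor Cmklr1 had 190, 252, 352 and 254.

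The 14 genes below 4 normalized reads in every library were Cxcl3, Cxcl11, Cxcl17, Ccl1, Ccl20, Ccl22, Ccl26, Ccl28, Ccr3, Ccr4, Ccr6, Ccr8, Ccr10 and Cxcr1. Of these 7 had no read at all, namely Cxcl3, Ccl1, Ccl20, Ccl26, Ccr4, Ccr8 and Cxcr1. At this depth a level up to the floor of 3 reads could not be seen.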

How the data were processed

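Heart mRNA-seq libraries of 4 groups were analysed, 1 per group. According to the methods, the authors made QuantSeq 3′ libraries, aligned reads to mm10 with Bowtie2, obtained gene counts from Bedtools and normalized them with a quantile method of edgeR. The deposited values are log2 of normalized counts plus a pseudocount of 1, given by symbol. Lung and gastrocnemius libraries were not used here.

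The log2 scale was undone to whole reads by inverting the quantile adjustment with fitted library sizes and a common dispersion of 0.149. Of 25035 values of 5 to 99 reads, 100% came out whole to within 0.1, and the largest error of a deposited value given back was 0.000511. The procedure was tested on simulated data. No count test was run on these reads, since each group has 1 library.

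A call needed a normalized read count of 4 in 1 of the 2 libraries and a 2-fold change, as in the study. Clopper-Pearson intervals (95%) of read ratios came from scipy 1.17.1, cover counting error only, and are not adjusted for the number of genes. PCR copies are not independent molecules. For a library with 0 reads the bound uses a floor of 3 reads. Genes with at least 16 normalized reads, and scarcer partners on their axes, are named with values. Up to 4 members of other lists are named by highest mean. The chemokine members, role groups and lists were chosen with earlier results of these data known. Scaling, pseudocount, minimum and depth were varied. Sequences are from RefSeq (GRCm38.p6), matched by symbol for 35 of 47 genes. One gene of the family stays in the counts and sums but is not reported here by name.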

Additional observations from a re-analysis of the deposited data

Results flagged for a closer look

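Several members were called in opposite directions by the same factor in the 2 settings of the other factor. With 1 library per group these differences of log2 fold changes were not tested, and they are given as values. For exercise, the fold change in cancer-bearing mice minus that in normal mice was 7.12 for Cxcl2, from −2.55 to 4.57. Here E(+)T(−) had 0 reads and the value depends on the pseudocount. The difference was 3.40 for Cxcl5, −2.78 for Cxcl10, 3.98 for Cxcl15, −2.25 for Ccl6, −2.54 for Ccl8 and 5.85 for Ccr7. For Cxcl2 in normal mice the counting interval reached up to 0.26, and the bound against 3 reads was −0.76, short of 2-fold. Cxcl5 rests on 1 read in E(+)T(−), and its 1.02 in cancer-bearing mice becomes 0.47 under scaling by total reads. Ccl6 and Ccl8 rest on 63 reads or more in every library. Cxcl10 has at most 9 reads and Ccr7 at most 10 in any library, with 0 Ccr7 reads in E(−)T(+). For cancer, the fold change with exercise minus that without was 3.98 for Cxcl15, 5.85 for Ccr7 and 3.90 for Cxcr3, which had 0 to 6 reads per library. T cell markers summed to 93.6, 55.7, 40.0 and 116 normalized reads in E(−)T(−), E(+)T(−), E(−)T(+) and E(+)T(+), beside Ccr7 and Cxcr3, and their part was not tested.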

How the results depend on the processing

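Scaling by total reads gave 18 lower members and a median of −0.70 for E(+)T(+) versus E(−)T(+), a median of −0.16 for E(−)T(+) versus E(−)T(−), and 10 higher, 16 lower and a reversed median of −0.30 for E(+)T(+) versus E(+)T(−). Thinning every library to the smallest total gave 3 higher and a median of −0.14 for E(+)T(−) versus E(−)T(−), 5 higher, 17 lower and −0.74 for E(+)T(+) versus E(−)T(+), −0.17 for E(−)T(+) versus E(−)T(−), and 12 higher, 15 lower and a reversed −0.25 for E(+)T(+) versus E(+)T(−). Both settings keep the globin reads in the total, and under both the median of all genes moved to −0.60 and −0.74 in the comparisons with E(+)T(+). Scaling by totals without the 12 genes over 1% of a library gave medians of −0.15 for E(−)T(+) versus E(−)T(−) and 0.26 for E(+)T(+) versus E(+)T(−). A minimum of 16 normalized reads tested fewer genes. It gave 3 higher and 4 lower of 28 members for E(+)T(−) versus E(−)T(−) and 6 higher of 33 for E(+)T(+) versus E(−)T(+). It gave 5 lower of 34 and a median of 0.22 for E(−)T(+) versus E(−)T(−), and 3 lower of 33 for E(+)T(+) versus E(+)T(−). The share of all genes called was computed only on the deposited scaling with the minimum of 4. The member counts under the other settings of this section therefore have no background. Counts of calls stayed within 1.5 times, and medians within 0.1, with TMM scaling, a pseudocount of 4 and no minimum. The medians were also unchanged with genes without reads at their bound, a setting chosen after seeing the data. Under scaling by total reads 7 of 36 named genes changed sign for E(+)T(+) versus E(−)T(+) and 5 for E(+)T(+) versus E(+)T(−), none of them called on the deposited scale.

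No paired analysis was possible because each group has 1 library and the labels carry no replicate numbers, and no library could be left out. Depth limits genes under about 16 normalized reads, whose intervals span several-fold.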
